A study of Homo sapiens with 12 samples.

Results

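A549 cells, a human lung adenocarcinoma line, were compared between a late pool of 4 libraries taken 12 h and 24 h after the addition of TGFβ and an early pool of 4 libraries taken at 0 h and 0.5 h. These are 8 of the 12 libraries of a time course that ran to 96 h, and they were chosen by their time labels alone. Every time point had 2 CEL-Seq2 libraries, numbered 1 and 2, of 384 wells with 1 sorted cell per well. The 0 h cells had no TGFβ, and the other cells received it at 4 ng/mL for the stated time, so the early pool holds untreated cells together with cells treated for 0.5 h. A549 is a single cancer cell line, and there was no untreated culture at 12 h or 24 h, so exposure to TGFβ and time in culture cannot be told apart. The labels do not say whether libraries of one time point came from separate cultures, and p-values therefore measure only the spread between these libraries, which may be technical. The libraries of one number shared all 384 cell barcodes with each other and 0 with the libraries of the other number, so number and barcode set cannot be told apart either.

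TGFβ binds the type II receptor TGFBR2, which activates a type I receptor that phosphorylates SMAD2 and SMAD3. These enter the nucleus with SMAD4 and change transcription, together with kinase signaling. In epithelial cells such as A549 this leads to epithelial-to-mesenchymal transition (EMT), in which cells rebuild the actin cytoskeleton, matrix and junctions.

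Wells were kept when they held 100 to 40000 unique molecular identifiers (UMIs, each marking 1 captured mRNA molecule). They also had to show 2000 to 7000 genes and a mitochondrial share of 35% or less. This left 1473 of 3072 wells, 678 cells early and 795 late, with 137 to 217 cells per library. The protein-coding counts of each library's kept cells added up to 2728859 to 4500036 UMIs. Levels are given in CPM, counts relative to the scaled library total. In these libraries 1 UMI is 0.222 to 0.366 CPM before scaling. The median number of UMIs per cell was 21234 to 28045 in the early libraries and 15789 to 24805 in the late ones (exact permutation test, two-sided, p = 0.2571; the smallest p for 4 against 4 is 0.0286). The mitochondrial share had medians of 21.9% to 25.01% early and 23.1% to 24.3% late (exact permutation test, p = 0.8571). The limits that kept wells bound both measures, so these tests cannot show that the pools were alike. Genes that define A549 summed to 24392 to 27564 CPM early and 16467 to 19295 CPM late, with TFF3 at 0 and AKR1B10 highest. Markers of endothelial cells summed to 3.88 to 9.76 CPM early and 6.05 to 10.7 CPM late, with 5 of 8 genes at 0. Those of fibroblasts (0.522 to 2.68 and 0.444 to 3.30 CPM, 2 of 8 at 0, among them DCN) and immune cells (6.404 to 9.54 and 0.889 to 2.45 CPM, 8 of 10 at 0, among them PTPRC) were as low. The immune sum, led by CD14, was lower late, and the part of these markers in the results was not tested.

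The pooled comparison asked which genes differed between 12-24 h and 0-0.5 h, with the replicate number as a block. Of 9788 genes tested, 2561 (26.2%) passed an adjusted p under 0.05 in edgeR's quasi-likelihood test, 1390 (14.2%) higher and 1171 (12.0%) lower in the late pool. At an unadjusted p under 0.05 there were 3625. Most of these differences were small. A log2 difference under 1, which is short of a doubling or halving, was found for 1817 of the 2561 genes, 916 higher (9.36% of the genes tested) and 901 lower (9.21%), and the smallest difference that passed was 0.23. The median over all genes was 0.00.

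The same 8 libraries were also compared as 2 against 2, in a second fit with a mean for each time point. It called 1827 genes (18.7%) for 12 h against 0 h, 1667 (17.0%) for 24 h against 0 h, 1521 (15.5%) for 12 h against 0.5 h and 1468 (15.0%) for 24 h against 0.5 h. Within the pools it called 54 genes (0.552%) for 0.5 h against 0 h and 19 (0.194%) for 24 h against 12 h. These comparisons share libraries with the pooled one. Under a log2 size of 0.5, 755 genes passed in the pooled comparison (342 higher, 413 lower), 164 for 12 h against 0 h and 119 for 24 h against 0 h. Between 0.5 and 1 there were 1062, 863 and 745 genes. At a size of 2 or more 202 genes passed pooled, 225 for 12 h against 0 h and 228 for 24 h against 0 h. In comparisons with 0.5 h the smallest size class held 112 genes (12 h) and 93 genes (24 h). The largest held 200 and 217, respectively. The median standard error (SE) of a log2 difference was 0.153 pooled and 0.212 for 12 h against 0 h, and over the 2928 genes with a mean of at least 50 CPM it was 0.103 and 0.147.

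**Figure D1:**
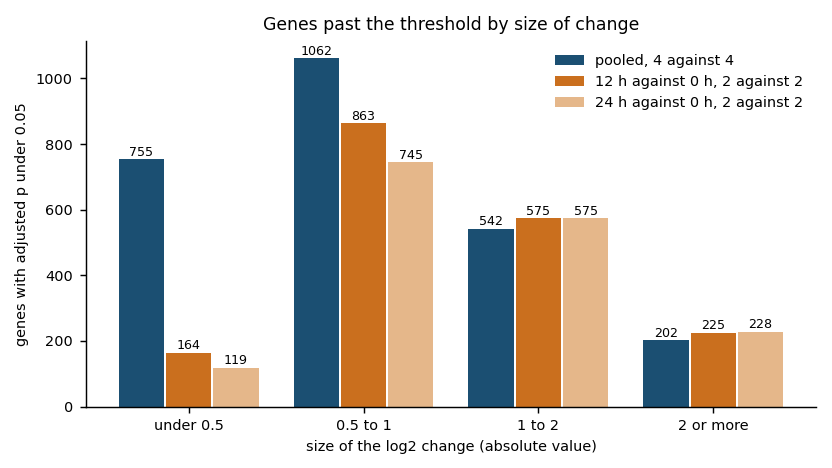
Number of genes with an adjusted p under 0.05 (vertical axis) by absolute log2 difference (horizontal axis), for the pooled comparison of 4 against 4 libraries and for 12 h and 24 h against 0 h with 2 against 2. The 2 against 2 values are from the fit of all 8 libraries with a mean for each time point. Under a size of 0.5 the pooled comparison has 755 genes against 164 and 119; at 2 or more it has 202 against 225 and 228.

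The genes with the largest differences were called by the 2 against 2 comparisons as well. Among the highest 5 by log2 difference, over genes of at least 50 CPM whose pools did not overlap, were TNFAIP6, a hyaluronan-binding protein (7.0 ± 0.30), the collagen chain COL1A1 (6.34 ± 0.25), the cytokine IL11 (4.92 ± 0.44) and the metalloprotease ADAM19 (4.68 ± 0.17). The lowest 5 were the activin subunit INHBB (-3.72 ± 0.13), the fatty acid hydroxylase FA2H (-3.56 ± 0.16), the stress cytokine GDF15 (-3.46 ± 0.16), the caveolar protein CAVIN2 (-3.38 ± 0.18) and the EGF receptor ligand AREG (-3.35 ± 0.17). For the genes given library by library, replicate 1 stands before replicate 2. ADAM19 was read at 5.15 and 3.76 CPM for 0 h, 6.30 and 8.79 for 0.5 h, 159.5 and 157 for 12 h, 174 and 135 for 24 h. FA2H was read at 61.3 and 63.02 CPM for 0 h, 71.1 and 60.02 for 0.5 h, 6.47 and 6.65 for 12 h, 4.42 and 3.72 for 24 h. Both were far apart between the pools and close within them.

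Of 20 TGFβ receptor and SMAD genes tested, 9 rose and 3 fell, with a median log2 difference of 0.34. TGFBR2, the type II receptor, was read at 69.2 and 64.5 CPM for 0 h, 65.1 and 65.8 for 0.5 h, 29.01 and 30.6 for 12 h, 24.7 and 30.1 for 24 h (log2 difference -1.21 ± 0.11 (SE), adjusted p = 1.21e-07). SMAD3, the main transcriptional effector, had 178 and 188 CPM for 0 h, 190.5 and 225 for 0.5 h, 154 and 151 for 12 h, 140.4 and 116 for 24 h (-0.48 ± 0.11 (SE), adjusted p = 0.00222). All 4 late libraries lay below all 4 early ones, and 24 h against 0 h called this difference (adjusted p = 0.0132) whereas 12 h against 0 h did not (adjusted p = 0.202). SMAD2 (0.10 ± 0.12, adjusted p = 0.587) and SMAD4 (0.28 ± 0.14, adjusted p = 0.141) did not pass. Small rises on the list included SMURF1, a ubiquitin ligase that acts on SMADs (0.90 ± 0.16 (SE), adjusted p = 0.000366), and the type I receptor ACVR1 (0.71 ± 0.14 (SE), adjusted p = 0.000955).

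Genes that mark the mesenchymal state differed by a log2 size under 1 in several cases. VIM, the intermediate filament vimentin, had 1061 and 1322 CPM for 0 h, 1409 and 1151 for 0.5 h, 1696 and 2187 for 12 h, 2348 and 2789.6 for 24 h (0.86 ± 0.13 (SE), adjusted p = 0.000136). ZEB1, a repressor of epithelial genes, had 17.6 and 15.3 CPM for 0 h, 12.3 and 14.3 for 0.5 h, 30.3 and 24.7 for 12 h, 29.8 and 32.4 for 24 h (0.97 ± 0.15 (SE), adjusted p = 8.50e-05). In both, the pools did not overlap. The matrix protein FN1 rose by 0.82 ± 0.20 (adjusted p = 0.0176), with 122 to 206 CPM early and 242 to 395 CPM late. This call was lost with 24 h alone as the late pool and under the stricter limits on cells. Against these, the receptor tyrosine kinase AXL, also on the mesenchymal list, fell (-0.81 ± 0.11 (SE), adjusted p = 1.13e-05). ZEB2 did not pass (0.49 ± 0.22, adjusted p = 0.115), although its late libraries (7.22 to 10.1 CPM) were all above its early ones (4.91 to 6.78 CPM). Of 14 epithelial genes 4 rose and 4 fell (57.1% called, beside 26.2% of all genes tested). The median was 0.03, and -0.02 with upper-quartile scaling. Of the 4 falls 1 had a log2 size under 1, and the genes named next do not include these falls. The junction scaffold TJP1 rose (0.80 ± 0.12 (SE), adjusted p = 4.61e-05). Its levels were 26.04 and 50.01 CPM for 0 h, 30.3 and 42.7 for 0.5 h, 53.4 and 87.3 for 12 h, 47.7 and 68.4 for 24 h. The pools overlapped, while the late libraries of each number lay above the early ones of that number. CTNNB1, the catenin of adherens junctions and Wnt signaling, rose as well (0.68 ± 0.10 (SE), adjusted p = 3.78e-05). The keratins KRT8 (-0.09 ± 0.11, adjusted p = 0.62) and KRT18 (-0.02 ± 0.17, adjusted p = 0.946) did not pass, and EPCAM was near 4.01 CPM in the early pool, with no call (0.17 ± 0.30, adjusted p = 0.731).

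Other reference genes of the panel gave no call in the pooled comparison. These were the proliferation marker MKI67 (0.10 ± 0.10, adjusted p = 0.546), the transcriptional co-activator YAP1 (0.16 ± 0.11, adjusted p = 0.31), the lamin LMNA (-0.19 ± 0.18, adjusted p = 0.495), the ribosomal protein RPLP0 (-0.01 ± 0.17, adjusted p = 0.982) and the glycolytic enzyme GAPDH (-0.23 ± 0.26, adjusted p = 0.588). GAPDH and RPLP0 have many processed pseudogenes, and their counts are uncertain. Under the stricter limits on cells MKI67 (0.87, adjusted p = 0.00165) and GAPDH (-0.73, adjusted p = 0.0435) passed. HIF1A, the oxygen-regulated transcription factor, had 281 and 223 CPM for 0 h, 223 and 269 for 0.5 h, 318 and 293 for 12 h, 190.3 and 184 for 24 h. Its pooled difference was -0.02 ± 0.20 (adjusted p = 0.971), and the 24 h libraries lay below the 12 h ones (log2 difference -0.71, adjusted p = 0.0356). With 24 h alone as the late pool HIF1A passed (-0.43, adjusted p = 0.0254). NFE2L2, the gene of NRF2, had late libraries (71.5 to 85.4 CPM) all below early ones (86.4 to 93.9 CPM) at -0.23 ± 0.09, which did not pass (adjusted p = 0.0771). It passed with upper-quartile scaling, with library totals and with thinned sums.

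Small differences that 2 against 2 missed were then followed. A gene was counted when its pooled difference passed, its log2 size was under 1, and neither 12 h against 0 h nor 24 h against 0 h passed. There were 611 such genes, 271 higher (2.77% of the genes tested) and 340 lower (3.47%), with a median size of 0.44, and 378 of them lay under 0.5. The other 1206 of the 1817 small differences passed in 12 h or 24 h against 0 h. In 435 of the 611 the 4 late libraries were all on one side of the 4 early ones, and 301 of these reached 20 CPM in the higher pool. Pools did not overlap in 26.2% of all genes tested and in 2120 of the 2561 called, and the 611 were already selected by the pooled test. Among the 611, 167 passed in 12 h or 24 h against 0.5 h, 444 in none of the 4 comparisons between pools, and 0 in either comparison within a pool. A missed call does not show that a gene differed in one comparison and not in the other. Of the 611 pooled calls DESeq2 made 275, and 19 of them passed under the stricter limits on cells. Those limits left 3265 genes to test, beside 9788 in the main comparison, so a gene of the 611 that did not pass may have been untested there.

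The size of this set depended on how 2 against 2 was fitted. When only the 4 libraries of a comparison entered the fit, 12 h against 0 h called 2874 genes (29.4%) and 24 h against 0 h 2255 (23.0%), and 244 of the 611 genes were still missed by both. Of the called genes, 1997 and 1379 had a log2 size under 1, beside 1817 in the pooled comparison. The pooled comparison did not call 758 and 406 of them. Whether 4 against 4 found more small differences thus depended on the fit of 2 against 2. In a fit with a mean for each of the 6 time points over all 12 libraries and no block, the counts were 1464 (15.0%) and 1318 (13.5%), and 916 small pooled differences were missed. Of the 23 genes described next, 18 passed in 12 h against 0 h and 15 in 24 h against 0 h when those libraries were fitted alone, and 3 (TMTC4, TNFRSF10D and CNTNAP3) in neither.

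**Figure D2:**
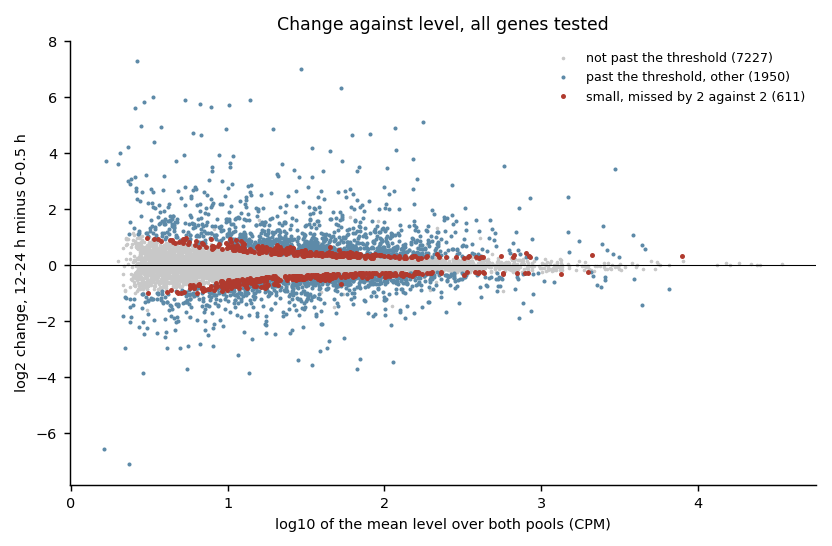
Log2 difference between the late and the early pool (vertical axis) against the log10 mean level in CPM (horizontal axis) for 9788 genes, 1 point each. The 611 small differences missed by 2 against 2 lie at small log2 sizes on both sides of 0, with a mean of at least 4.12 CPM in the higher pool.

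The small rises are given from those with the lowest adjusted p. JPT1, a microtubule-associated protein (chr17:75135248-75168281, GRCh38), was read at 791 and 656 CPM for 0 h, 672 and 626 for 0.5 h, 1022 and 826 for 12 h, 1012 and 819 for 24 h (0.42 ± 0.09 (SE), adjusted p = 0.00125). Its lowest late library was above its highest early one, and each number showed the rise (0.48 and 0.36 for numbers 1 and 2). DYNLT3, a light chain of the dynein motor, had 44.2 and 44.8 CPM for 0 h, 33.6 and 44.95 for 0.5 h, 53.9 and 68.6 for 12 h, 57.1 and 62.1 for 24 h (0.53 ± 0.11 (SE), adjusted p = 0.00157). S100A10, the partner of annexin A2 in plasminogen binding (chr1:151982915-151993859), had 1843 and 1853 CPM for 0 h, 1856 and 1811 for 0.5 h, 2390.4 and 2246 for 12 h, 2317 and 2456 for 24 h (0.35 ± 0.08 (SE), adjusted p = 0.00351). The spread within each of its pools was small against the gap between them, and the rise corresponds to 1841 ± 20.6 CPM early and 2352 ± 90.8 CPM late (SD, n = 4). CD58, an adhesion molecule that T cells bind through CD2 (chr1:116514534-116571039), had 21.4 and 22.3 CPM for 0 h, 22.5 and 17.1 for 0.5 h, 31.6 and 29.8 for 12 h, 32.4 and 32.4 for 24 h (0.60 ± 0.13 (SE), adjusted p = 0.00219). ABI1, a subunit of the WAVE complex that starts branched actin, had 62.1 and 46.3 CPM for 0 h, 56.4 and 46.96 for 0.5 h, 75.9 and 68.1 for 12 h, 76.2 and 68.4 for 24 h (0.45 ± 0.10 (SE), adjusted p = 0.00226). In these 5 genes the pools did not overlap, which the rule that picked them required.

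The cyclin family gene CCNI was higher late, lying between 169 and 193 CPM early and between 234 and 256 CPM late (0.38 ± 0.09 (SE), adjusted p = 0.00224). The cadherin-like adhesion protein FAT1 lay between 45.6 and 61.3 CPM early and between 62.2 and 78.2 CPM late (0.45 ± 0.10 (SE), adjusted p = 0.00286). CAMLG, an ER receptor for tail-anchored proteins, lay between 44.1 and 54.8 CPM early and between 62.9 and 71.4 CPM late (0.45 ± 0.11 (SE), adjusted p = 0.00469). The ER mannosyltransferase TMTC4 rose by 0.69 ± 0.15, GPRIN3 by 0.66 ± 0.14 and the decoy TRAIL receptor TNFRSF10D by 0.74 ± 0.17. TNFRSF10D had the largest difference of these rises and the lowest level of its early pool in 0.5 h replicate 1 (9.90 CPM against 15.1 to 21.1 CPM in the others). With 0 h alone as the early pool, TNFRSF10D no longer passed.

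The small falls are given in the same way. SLC25A33, a mitochondrial carrier of pyrimidine nucleotides (chr1:9539465-9585173), had 18.99 and 20.5 CPM for 0 h, 27.3 and 21.6 for 0.5 h, 12.9 and 12.5 for 12 h, 13.5 and 12.6 for 24 h (-0.77 ± 0.16 (SE), adjusted p = 0.00103). The late libraries were within 12.5 to 13.5 CPM and none reached the lowest early library. GNE, the enzyme that starts sialic acid synthesis (chr9:36214441-36277042), had 18.7 and 23.4 CPM for 0 h, 22.5 and 25.4 for 0.5 h, 11.9 and 16.8 for 12 h, 11.9 and 15.3 for 24 h (-0.69 ± 0.15 (SE), adjusted p = 0.00149). RPIA, ribose-5-phosphate isomerase of the pentose phosphate pathway (chr2:88691673-88750929), had 24.95 and 22.8 CPM for 0 h, 34.2 and 21.3 for 0.5 h, 16.6 and 15.2 for 12 h, 13.5 and 18.2 for 24 h (-0.71 ± 0.17 (SE), adjusted p = 0.00346). Its highest value was 0.5 h replicate 1, and the fall was -0.94 among libraries of number 1 and -0.40 among those of number 2. RBBP8, a factor of DNA end resection, had 45.8 and 42.2 CPM for 0 h, 45.6 and 53.2 for 0.5 h, 32.4 and 33.3 for 12 h, 31.2 and 36.1 for 24 h (-0.50 ± 0.12 (SE), adjusted p = 0.00338). SNX2, a sorting nexin of endosomal retrieval, had 68.9 and 61.6 CPM for 0 h, 63.9 and 63.8 for 0.5 h, 47.7 and 49.5 for 12 h, 48.9 and 46.5 for 24 h (-0.42 ± 0.10 (SE), adjusted p = 0.00391). SRPRB, the β subunit of the signal recognition particle receptor, had 90.3 and 93.7 CPM for 0 h, 95.4 and 93.7 for 0.5 h, 63.2 and 76.4 for 12 h, 70.6 and 73.7 for 24 h (-0.40 ± 0.10 (SE), adjusted p = 0.00412).

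The phospholipid flippase ATP8B1 was lower late, lying between 20.1 and 29.1 CPM early and between 13.6 and 17.6 CPM late (-0.69 ± 0.16 (SE), adjusted p = 0.00284). AP5S1, a subunit of the AP-5 adaptor, lay between 17.4 and 24.0 CPM early and between 11.6 and 15.02 CPM late (-0.66 ± 0.16 (SE), adjusted p = 0.00394), and with 12 h alone as the late pool it no longer passed. FAM104B fell by 0.54, FAM107B by 0.39 and HSBP1L1 by 0.67 on the log2 scale. CNTNAP3 fell by 0.74, but it has near-identical copies in the genome and its counts are uncertain. With 0 h alone as the early pool it no longer passed. Of the 23 genes, 8 (CD58, TMTC4, SLC25A33, GNE, FAM104B, ATP8B1, RPIA and HSBP1L1) passed under every alternative in which they were tested, and 10 did not pass when tested against a change of 1.2-fold. These 8 genes were not tested under the stricter limits on cells. Among those of the 23 that were, only JPT1 kept its call. DYNLT3, GPRIN3, CCNI, ABI1, FAT1, S100A10, CAMLG, FAM107B, SNX2 and SRPRB lost it.

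**Figure D3:**
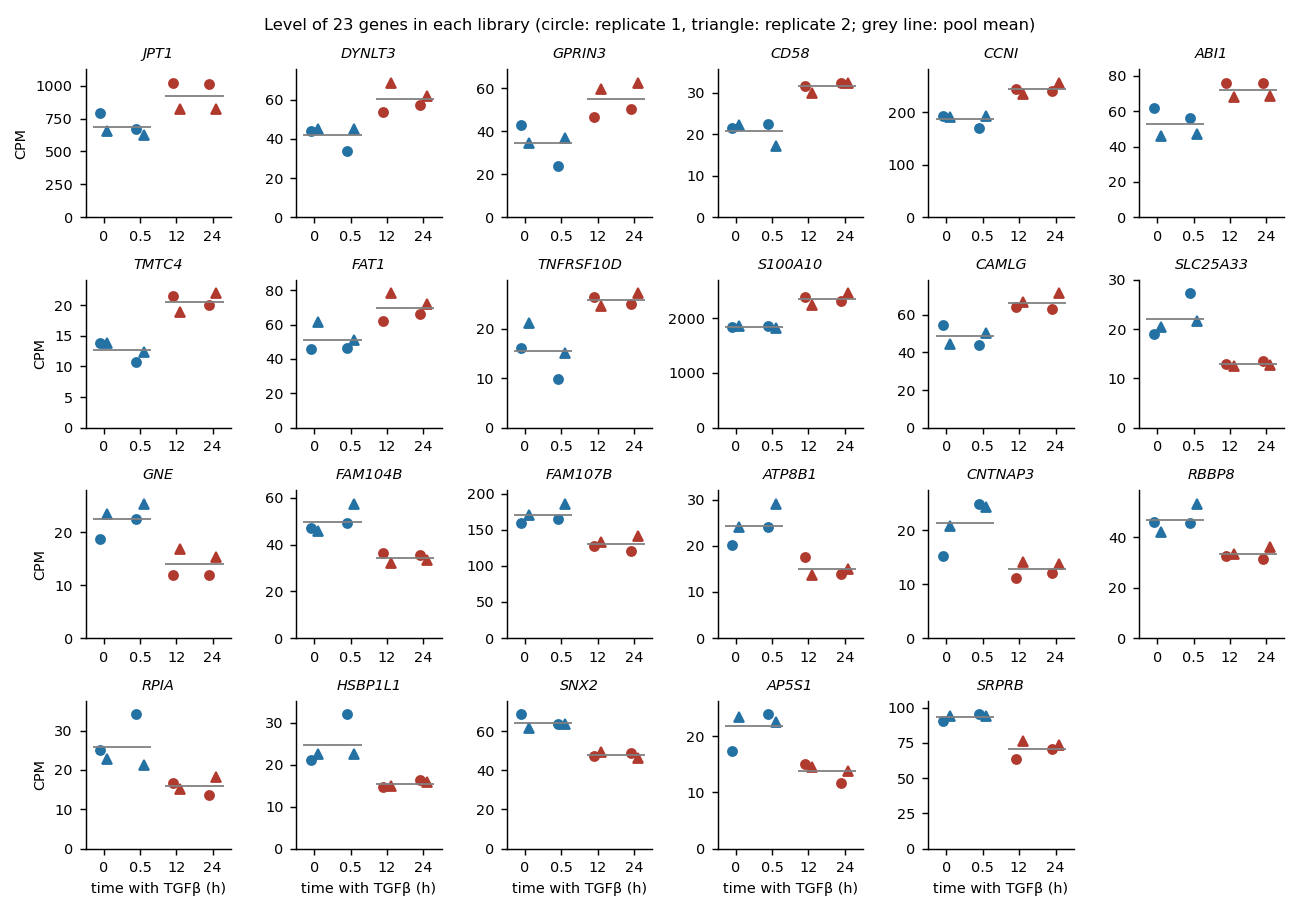
Level in CPM (vertical axes, from 0) of the 23 genes in each of the 8 libraries, by time with TGFβ in h (horizontal axes); circles are replicate 1, triangles replicate 2, blue the early and red the late pool, and grey lines pool means. The first 11 genes lie higher and the other 12 lower in all late libraries, with S100A10 at 1811 to 1856 CPM early and 2246 to 2456 CPM late.

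Promoters of the first-ranked genes of each direction that had an entry in the RefSeq table are shown, as the regulatory sequence next to the small differences with the lowest adjusted p. Each runs from 250 bases before to 50 bases after a transcription start (RefSeq, GRCh38.p14), 5′ to 3′, with motif matches in capitals. Where a gene has several starts (3 for JPT1, 2 for GNE), the start nearest to that of the GENCODE canonical transcript was taken. The motifs were TGACTCA (AP-1), CAGACA (SMAD), CACCTG (E-box) and TGACNNNGC (antioxidant response element, ARE), each on both strands. No motif contains another, but matches may overlap.
JPT1 (chr17:75154463-75154762, minus strand): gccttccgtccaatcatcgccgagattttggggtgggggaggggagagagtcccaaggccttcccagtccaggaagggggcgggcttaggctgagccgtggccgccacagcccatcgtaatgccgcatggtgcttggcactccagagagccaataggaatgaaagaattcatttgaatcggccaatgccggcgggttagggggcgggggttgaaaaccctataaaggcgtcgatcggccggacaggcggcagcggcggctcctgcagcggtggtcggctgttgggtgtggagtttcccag
DYNLT3 (chrX:37847522-37847821, minus strand): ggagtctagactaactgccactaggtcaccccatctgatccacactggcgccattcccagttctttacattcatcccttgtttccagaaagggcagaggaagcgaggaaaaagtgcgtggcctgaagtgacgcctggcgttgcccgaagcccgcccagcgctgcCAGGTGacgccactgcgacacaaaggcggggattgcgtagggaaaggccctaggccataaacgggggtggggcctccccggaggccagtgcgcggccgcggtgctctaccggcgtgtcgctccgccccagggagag
SLC25A33 (chr1:9539215-9539514, plus strand): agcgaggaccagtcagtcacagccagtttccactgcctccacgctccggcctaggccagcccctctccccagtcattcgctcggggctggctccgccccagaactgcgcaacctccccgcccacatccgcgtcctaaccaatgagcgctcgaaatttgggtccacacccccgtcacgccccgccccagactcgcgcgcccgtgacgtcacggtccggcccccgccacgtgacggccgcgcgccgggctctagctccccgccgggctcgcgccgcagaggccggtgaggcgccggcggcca
GNE (chr9:36258399-36258698, minus strand): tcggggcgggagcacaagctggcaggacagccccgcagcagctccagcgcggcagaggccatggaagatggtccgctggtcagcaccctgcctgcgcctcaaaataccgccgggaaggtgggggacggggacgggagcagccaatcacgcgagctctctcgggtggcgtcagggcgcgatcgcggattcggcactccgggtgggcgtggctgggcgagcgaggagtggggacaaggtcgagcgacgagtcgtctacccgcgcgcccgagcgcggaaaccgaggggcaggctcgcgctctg

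DYNLT3 held 1 E-box match, at base 165, and the other 3 promoters held no match to these letters in this window. Among 35116 promoters of this length in the table, 4.95% held the AP-1 motif, 16.9% the SMAD motif, 20.6% the E-box and 13.3% the ARE, and among the 11767 promoters of the genes tested the shares were 3.41%, 12.5%, 17.7% and 14.4%. Genes with several starts count several times. For the small missed rises (341 promoters) the shares were 4.69%, 15.2%, 15.0% and 13.5%, and for the small missed falls (406 promoters) 2.71%, 11.3%, 17.5% and 15.3%. For genes that rose by a log2 of at least 1 (674 promoters) they were 6.38%, 19.3%, 22.0% and 10.7%, and for genes that fell by as much (336 promoters) 6.85%, 16.1%, 22.3% and 12.5%. A match is a string of letters and not a bound site, and these shares were not tested.

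Gene lists were then described by how many members passed and by their median, beside 14.2% higher, 12.0% lower and a median of 0.00 over all genes tested. Which of these shares was larger depended on the scaling. Of the 611 genes, 85 were in a list and 526 in none. Of 37 actin regulators 28 rose and 0 fell (median 0.45). Their differences were mostly small: 22 of the 28 had a log2 size under 1. The list had the same median in both numbers (0.46 among the replicate 1 libraries and 0.46 among the replicate 2 libraries), and its summed level was 27812 to 30716 CPM early and 35136 to 40362 CPM late. VCL, which links integrins to actin at focal adhesions, had 112 and 106 CPM for 0 h, 101 and 134 for 0.5 h, 206 and 231 for 12 h, 201 and 197 for 24 h (0.88 ± 0.10 (SE), adjusted p = 1.24e-06). The actin crosslinker ACTN4 rose as well (0.77 ± 0.09 (SE), adjusted p = 3.29e-06). ACTB, cytoplasmic β-actin, had 3005 and 3409.8 CPM for 0 h, 3586 and 3161 for 0.5 h, 5189.5 and 4491 for 12 h, 5877 and 6241 for 24 h (0.73 ± 0.11 (SE), adjusted p = 4.04e-05), although its counts are uncertain because of its many processed pseudogenes. The 24 h libraries of ACTB were above the 12 h ones, a difference that did not pass. Between 24 and 27 members rose when any 1 library was left out, and 1 fell without 24 h replicate 2.

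Of 10 integrins 7 rose and 2 fell (1 fall without 0 h replicate 1, 0.5 h replicate 2 or either 12 h library, 0 without 0 h replicate 2 or either 24 h library). Small differences here included ITGB1, the common β1 chain, at 301 to 459.8 CPM early and 479 to 571 CPM late (0.52 ± 0.09 (SE), adjusted p = 0.000222), and ITGB5, which fell (-0.34 ± 0.11 (SE), adjusted p = 0.0224). The ITGB5 call was lost without 0 h replicate 2 or either 24 h library, with 0 h or 12 h alone as a pool, and against a 1.2-fold change. Of 20 tubulins and microtubule proteins 7 rose and 2 fell (median 0.29), with the β-tubulin TUBB6 higher (0.31 ± 0.09 (SE), adjusted p = 0.0139) and the microtubule destabilizer STMN1 lower (-0.36 ± 0.09 (SE), adjusted p = 0.00686). Without 0 h replicate 1 or 24 h replicate 1 there were 3 rises, without 0 h replicate 2 there were 4, and falls numbered 1 without any one library other than 0.5 h replicate 1 or 24 h replicate 2. TUBB6 lost its call without either 0 h library or 12 h replicate 1, with 24 h alone as the late pool and with no filter on low counts. The stricter limits on cells and the test against a 1.2-fold change removed it too. TUBA1A rose (0.62 ± 0.09 (SE), adjusted p = 5.03e-05), but α-tubulin genes are near-identical and their counts can be split among copies. Of 14 genes of septins, lamins and nuclear envelope 4 rose and 0 fell (28.6% called, near the 26.2% of all genes tested). They included SEPTIN7 (0.57 ± 0.10 (SE), adjusted p = 0.000226), the inner nuclear membrane protein EMD (0.42 ± 0.11 (SE), adjusted p = 0.00562) and the lamin LMNB2 (0.41 ± 0.11 (SE), adjusted p = 0.0087).

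Lists of the secretory pathway had medians near 0. Of 30 genes of COPI, COPII and Golgi traffic 6 rose and 0 fell, a share below the 26.2% of all genes, and 5 of the 6 were missed by 2 against 2. SEC31A and SEC23A, both of the COPII coat that buds from the ER, had 48.8 and 52.3 CPM for 0 h, 47.7 and 47.5 for 0.5 h, 61.6 and 66.2 for 12 h, 59.6 and 66.2 for 24 h for SEC31A (0.37 ± 0.10 (SE), adjusted p = 0.0102) and 69.1 to 82.5 CPM early and 88.7 to 109.6 CPM late for SEC23A (0.37 ± 0.10 (SE), adjusted p = 0.0124). The Golgi matrix protein GOLGA2 was higher late, lying between 20.6 and 27.5 CPM early and between 27.5 and 36.0 CPM late (0.47 ± 0.14 (SE), adjusted p = 0.0135). These calls were fragile: leaving out 0 h replicate 2 or 12 h replicate 2 left 2 rises, and 3 were left without replicate 1 of any one of the 4 times. There was 1 with 0 h alone as the early pool and 0 with 24 h alone as the late pool. Upper-quartile scaling left 3 rises and 1 fall. Of 21 ER chaperones and unfolded protein response genes 6 rose and 0 fell (median 0.07, 28.6% called, near the 26.2% of all genes), and 3 rose without 24 h replicate 1. The ER chaperone HSPA5 had 529.7 and 553 CPM for 0 h, 502 and 559.5 for 0.5 h, 605 and 750.2 for 12 h, 755 and 795 for 24 h (0.44 ± 0.09 (SE), adjusted p = 0.00119), and HERPUD1, of ER-associated degradation, had 63.5 ± 3.51 CPM early and 124 ± 11.01 CPM late (SD, n = 4; 0.97 ± 0.10 (SE), adjusted p = 5.37e-07). DNAJC3, a co-chaperone of HSPA5, rose as well (0.43 ± 0.11 (SE), adjusted p = 0.00486). Of 28 genes of ER translocation and N-glycosylation 0 rose and 1, the signal peptidase subunit SEC11C, fell (-0.27 ± 0.09 (SE), adjusted p = 0.0224). This call was lost without either 0 h library, either 12 h library or 0.5 h replicate 2, and with 0 h, 12 h or 24 h alone as a pool. The stricter limits on cells and the test against a 1.2-fold change removed it too. The list had 3 falls without 0.5 h replicate 1 and 4 without 24 h replicate 2.

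Some genes for making ribosomes were lower in small steps. Of 42 ribosome biogenesis genes 13 fell and 0 rose (median -0.18, -0.26 among the replicate 1 libraries and -0.12 among the replicate 2 libraries), each of the 13 by a log2 size under 1, and 6 were missed by 2 against 2. The share called was 31.0%, beside 26.2% of all genes tested. The summed level was 8192 to 8602 CPM early and 7054 to 7658 CPM late, with no overlap. NOP16, a nucleolar factor of the large subunit, had 189.6 and 193 CPM for 0 h, 183 and 185 for 0.5 h, 127 and 139 for 12 h, 144 and 138 for 24 h (-0.45 ± 0.08 (SE), adjusted p = 0.000489). All late libraries lay below all early ones. NOB1, the nuclease that finishes the small subunit's rRNA, had 92.4 to 109 CPM early and 68.9 to 81.04 CPM late (-0.49 ± 0.10 (SE), adjusted p = 0.000937), and the nucleolar protein LYAR 74.1 to 95.2 and 52.9 to 66.6 CPM (-0.56 ± 0.11 (SE), adjusted p = 0.000909). The count of falls was 7 without 0 h replicate 1 and 8 without 12 h replicate 1 or without 24 h replicate 1. Of 76 proteins of the cytosolic ribosome 0 rose and 1 fell, RPL19 (-0.26 ± 0.09 (SE), adjusted p = 0.0433), with 0 to 7 falls when 1 library was left out (7 without 24 h replicate 2), and the median of -0.04 was -0.18 among the replicate 1 libraries and 0.14 among the replicate 2 libraries. Ribosomal protein genes have many pseudogenes, and their counts are uncertain.

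Some nuclear genes of the mitochondrion were lower. Of 63 mitochondrial ribosomal proteins 16 fell and 1 rose (median -0.18, -0.23 among the replicate 1 libraries and -0.09 among the replicate 2 libraries), with summed levels of 5859 to 6591 CPM early and 5353 to 5835 CPM late. MRPL17 had 128 and 164 CPM for 0 h, 135 and 136 for 0.5 h, 99.2 and 109.9 for 12 h, 101 and 109.7 for 24 h (-0.42 ± 0.09 (SE), adjusted p = 0.00184). MRPL42 (-0.40 ± 0.09 (SE), adjusted p = 0.00265) and MRPS17 (-0.58 ± 0.14 (SE), adjusted p = 0.00442) fell too. The falls numbered 10 without 0 h replicate 1, 9 without 0 h replicate 2 or 12 h replicate 2, and 5 with 24 h alone as the late pool. Of 31 genes of import and dynamics 4 fell and 1 rose, which is 16.1% called, beside 26.2% called over all genes tested. Among the falls were the outer membrane receptor TOMM20, with 241 and 207 CPM for 0 h, 242 and 218 for 0.5 h, 181 and 159 for 12 h, 170.5 and 155 for 24 h (-0.45 ± 0.08 (SE), adjusted p = 0.000394), TOMM7 (-0.34 ± 0.09 (SE), adjusted p = 0.00739) and the channel VDAC3 (-0.34 ± 0.09 (SE), adjusted p = 0.00884). Of 71 nuclear genes of the respiratory chain 7 fell and 0 rose, a share of 9.86% that is below the 12.0% of all genes lower, with a median of -0.10 (-0.18 among the replicate 1 libraries and -0.02 among the replicate 2 libraries). NDUFAB1, the mitochondrial acyl carrier protein and a complex I subunit, had 376 and 306 CPM for 0 h, 314 and 291 for 0.5 h, 239 and 231 for 12 h, 244 and 218 for 24 h (-0.46 ± 0.09 (SE), adjusted p = 0.000545). CYCS, cytochrome c, had 739 to 840.0 CPM early and 525 to 673 CPM late (-0.42 ± 0.09 (SE), adjusted p = 0.00231), and its counts are uncertain because of pseudogenes. The falls on this list numbered 3 without 0 h replicate 1. They numbered 4 without the other 0 h library, without either 12 h library, or without 24 h replicate 1. Of the 13 genes that the mitochondrial genome encodes 0 passed in edgeR's pooled test (median 0.04), with 0 at an unadjusted p under 0.05 and 0 called by DESeq2. Only wells with a mitochondrial share of 35% or less were kept, which bounds differences in these genes.

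Some DNA replication genes were lower in the late pool in small steps. Of 43 genes of G1/S and DNA replication 9 fell and 0 rose, against 2 called for 12 h against 0 h and 0 for 24 h against 0 h, and 7 of the 9 were small and missed by 2 against 2. The share that fell, 20.9%, stands beside 12.0% of all genes. RPA3, a subunit of the single-strand binding protein RPA, had 155 and 154 CPM for 0 h, 157 and 156 for 0.5 h, 108 and 109 for 12 h, 114 and 134 for 24 h (-0.43 ± 0.09 (SE), adjusted p = 0.00171). RFC3, a subunit of the clamp loader, had 63.7 and 67.9 CPM for 0 h, 59.4 and 76.3 for 0.5 h, 50.5 and 52.4 for 12 h, 52.9 and 46.5 for 24 h (-0.40 ± 0.11 (SE), adjusted p = 0.0103). In both genes all late libraries were below all early ones. PCNA, the sliding clamp, had 478 and 606 CPM for 0 h, 523 and 532 for 0.5 h, 349 and 346 for 12 h, 377 and 479.5 for 24 h (-0.47 ± 0.10 (SE), adjusted p = 0.00196), where 24 h replicate 2 overlapped the early pool. Named after their values were seen, the other 6 were LIG1, CDC6, RFC5, RPA2, POLE2 and ORC6, with log2 differences of -0.53 to -0.34. The median was -0.11, -0.03 among the replicate 1 libraries and -0.23 among the replicate 2 libraries, and there were 4 falls and 2 rises without 12 h replicate 2, 5 falls without 0 h replicate 2 or 24 h replicate 1, 3 with 0 h alone as the early pool and 0 against a change of 1.2-fold. In summed counts, fewer cells in S phase and less of these mRNAs per cell cannot be told apart. Of 50 genes of G2/M and mitosis 2 rose and 4 fell (median 0.03), among them the topoisomerase TOP2A, which rose (0.39 ± 0.09 (SE), adjusted p = 0.00267), and the spindle checkpoint gene MAD2L1, which fell (-0.52 ± 0.10 (SE), adjusted p = 0.000452). The share called on this G2/M list was 12.0%, below the 26.2% of all genes tested. CCND1, cyclin D1, was higher late, lying between 48.01 and 87.4 CPM early and between 122 and 159 CPM late (0.88 ± 0.14 (SE), adjusted p = 0.000168).

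A549 carries a mutation in KEAP1, the repressor of NRF2, and expresses NRF2 targets at a high level. Of 31 NRF2 target and NADPH supply genes 22 fell and 0 rose (median -0.53), 17 of the 22 by a log2 size under 1, with summed levels of 34866 to 39963 CPM early and 21792 to 24373 CPM late. GCLM, which regulates glutathione synthesis, had 273 and 333 CPM for 0 h, 304 and 296 for 0.5 h, 149.7 and 159 for 12 h, 145 and 169 for 24 h (-0.95 ± 0.09 (SE), adjusted p = 9.81e-08). PGD, of the pentose phosphate pathway, had 777 to 944 CPM early and 445 to 499 CPM late (-0.84 ± 0.08 (SE), adjusted p = 3.83e-07), and the quinone reductase NQO1 had 2521 to 3134 and 1659.8 to 1787 CPM (-0.72 ± 0.09 (SE), adjusted p = 4.36e-06). Of these 22 falls 1 had a log2 size under 1 and was missed by 2 against 2. Of 23 peroxiredoxins and redox proteins 7 fell and 0 rose (4 falls without 24 h replicate 1), with a median of -0.08 and sums that overlapped (8423 to 9556 CPM early and 7161 to 8468 CPM late). On this list 30.4% were called, beside 26.2% of all genes tested. Among the falls were thioredoxin TXN at 3356 and 2929 CPM for 0 h, 2787 and 2889.6 for 0.5 h, 1875 and 1971 for 12 h, 2091 and 2349 for 24 h (-0.53 ± 0.10 (SE), adjusted p = 0.000405), the glutaredoxin GLRX (-0.60 ± 0.10 (SE), adjusted p = 0.000132) and catalase CAT (-0.54 ± 0.11 (SE), adjusted p = 0.00103). Of 33 lysosome and V-ATPase genes 7 fell and 1 rose (median -0.19), which is 24.2% called, below the 26.2% of all genes tested. The protease CTSL had 745 and 736 CPM for 0 h, 559 and 681 for 0.5 h, 357 and 363 for 12 h, 365 and 363 for 24 h (-0.91 ± 0.10 (SE), adjusted p = 8.16e-07), CTSD fell (-0.68 ± 0.10 (SE), adjusted p = 3.95e-05), and so did HEXA (-0.51 ± 0.10 (SE), adjusted p = 0.001).

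**Figure D4:**
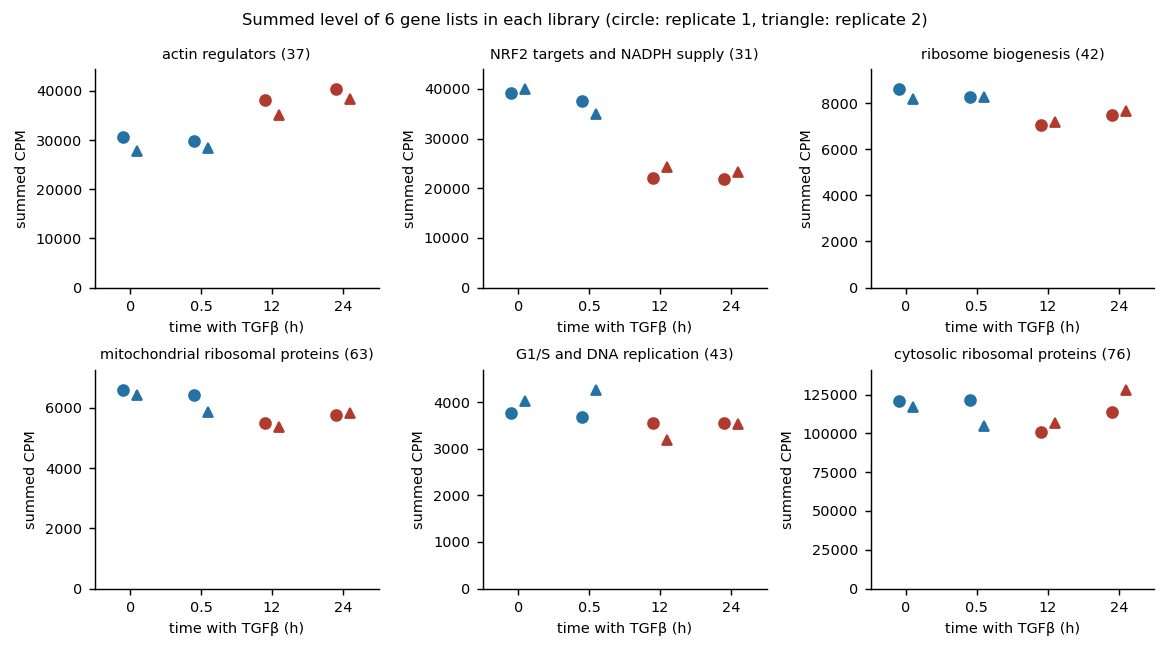
Summed level in CPM of 6 gene lists (vertical axes, from 0) in each library, by time with TGFβ in h (horizontal axes); circles are replicate 1, triangles replicate 2, blue the early and red the late pool, with the number of genes tested in brackets. The pools do not overlap for the first 5 lists (ribosome biogenesis 8192 to 8602 CPM early and 7054 to 7658 CPM late), whereas they do for cytosolic ribosomal proteins (104579 to 121258 CPM early and 100738 to 127874 CPM late).

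Lipid, amino acid and nucleotide genes moved in both directions. ACLY, which makes cytosolic acetyl-CoA, had 372 and 321 CPM for 0 h, 358 and 357 for 0.5 h, 685 and 635 for 12 h, 676 and 599.7 for 24 h (0.88 ± 0.08 (SE), adjusted p = 1.68e-07), and ACO1, the cytosolic aconitase, rose as well (0.89 ± 0.12 (SE), adjusted p = 1.70e-05), while IDH1 fell (-0.56 ± 0.10 (SE), adjusted p = 0.000338). Of 21 cholesterol synthesis genes 4 rose and 3 fell (1 to 3 falls with 1 library left out), with STARD4 (0.91 ± 0.14 (SE), adjusted p = 6.55e-05), INSIG1 (0.60 ± 0.12 (SE), adjusted p = 0.00084) and SQLE (0.43 ± 0.10 (SE), adjusted p = 0.00378) higher. INSIG1 and SQLE lost their calls under the stricter limits on cells, and SQLE also against a 1.2-fold change. The amino acid carrier subunit SLC7A5 lay between 70.5 and 108 CPM early and between 117 and 157 CPM late (0.62 ± 0.13 (SE), adjusted p = 0.00116), whereas the aspartate transaminase GOT1 fell (-0.54 ± 0.13 (SE), adjusted p = 0.00379). In pyrimidine and purine synthesis DHODH was lower late, lying between 14.5 and 19.5 CPM early and between 8.29 and 9.55 CPM late (-0.92 ± 0.17 (SE), adjusted p = 0.000423) and ATIC fell (-0.43 ± 0.10 (SE), adjusted p = 0.00228). Of 22 glycolysis and hypoxia response genes 3 rose and 5 fell, with BNIP3 (-0.69 ± 0.10 (SE), adjusted p = 2.90e-05), EGLN3 (-0.96 ± 0.17 (SE), adjusted p = 0.000279) and ENO2 (-0.70 ± 0.13 (SE), adjusted p = 0.000398) lower.

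Nuclear and signaling lists held further small differences. Of 36 chromatin remodelers and histone modifiers 7 rose and 1 fell (median 0.13), which is 22.2% called, below the 26.2% of all genes tested. ARID1B, a subunit of the BAF remodeling complex, had 52.1 and 54.6 CPM for 0 h, 47.1 and 55.0 for 0.5 h, 79.2 and 79.5 for 12 h, 77.1 and 85.6 for 24 h (0.62 ± 0.10 (SE), adjusted p = 8.59e-05). The H3K4 demethylase KDM5B (0.84 ± 0.15 (SE), adjusted p = 0.000373) and CHD3 of the NuRD complex (0.49 ± 0.11 (SE), adjusted p = 0.00202) rose too. Of 16 interferon and antigen presentation genes 6 fell and 0 rose (median -0.43), and IFITM2, an interferon-induced membrane protein, had 245 and 200.3 CPM for 0 h, 226 and 221 for 0.5 h, 209 and 159 for 12 h, 193 and 141 for 24 h (-0.36 ± 0.09 (SE), adjusted p = 0.00687). Of 22 NF-κB and cytokine genes 9 rose and 4 fell, with NFKB1 (0.90 ± 0.11 (SE), adjusted p = 3.10e-06) and NFKB2 (0.64 ± 0.16 (SE), adjusted p = 0.00544) higher and BIRC3 lower (-0.52 ± 0.12 (SE), adjusted p = 0.00229). Of 22 MAPK pathway and feedback genes 4 rose and 4 fell. The GTPase gene NRAS (0.36 ± 0.09 (SE), adjusted p = 0.00759) was among the rises that 2 against 2 missed, and the phosphatase DUSP4 fell (-0.96 ± 0.10 (SE), adjusted p = 4.36e-07). Of 25 Rab GTPases 6 rose and 2 fell, and RAB10, which acts in exocytosis, was among the falls, with 717 and 678 CPM for 0 h, 607 and 641 for 0.5 h, 424 and 377 for 12 h, 403 and 360.5 for 24 h (-0.76 ± 0.09 (SE), adjusted p = 2.66e-06).

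**Figure D5:**
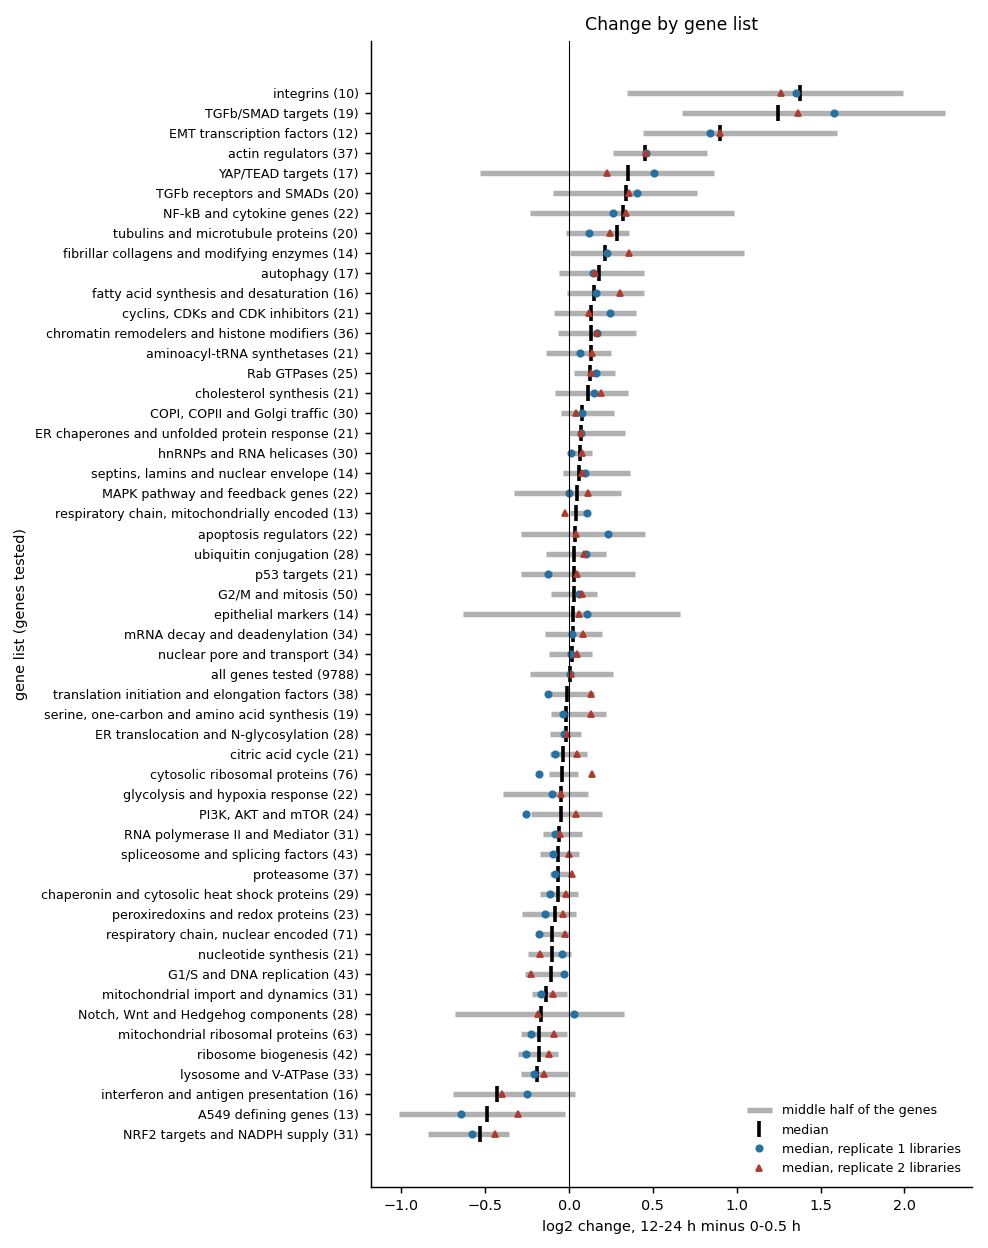
Log2 difference between the late and the early pool (horizontal axis) for the 52 gene lists with at least 10 genes tested and for all genes (vertical axis, number tested in brackets); bars span the interquartile range of the genes, ticks are medians, circles and triangles medians among libraries of replicate 1 and of replicate 2. Actin regulators (median 0.45) and NRF2 targets (median -0.53) lie apart from all genes (0.00) in both numbers, and cytosolic ribosomal proteins lie on either side of 0.

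Pooling also had a cost for genes that had already changed at 0.5 h. Of 1272 genes past the threshold in both 12 h and 24 h against 0 h, 39 did not pass in the pooled comparison, and 25 of these 39 passed in 0.5 h against 0 h. Of 19 TGFβ/SMAD targets tested, 18 passed in each of the comparisons with 0 h and 11 in the pooled one. The 7 that pooling lost were BHLHE40, CCN1, CCN2, GADD45B, JUNB, KLF10 and SMAD7, which were named after their values were seen, and all 7 passed in 0.5 h against 0 h. JUNB, an AP-1 subunit, had 43.7 and 54.9 CPM for 0 h, 494 and 502 for 0.5 h, 635 and 589 for 12 h, 525 and 409.6 for 24 h. Its 0.5 h libraries were near the late level and its 0 h libraries far below, and its pooled difference was 0.98 ± 0.93 (adjusted p = 0.521). SMAD7, the inhibitory SMAD, had 5.15 and 9.25 CPM for 0 h, 47.4 and 43.2 for 0.5 h, 21.2 and 33.3 for 12 h, 25.6 and 38.3 for 24 h, where 0.5 h was the highest time (0.15 ± 0.73, adjusted p = 0.918). KLF10, a TGFβ-induced repressor, had 91.95 and 80.1 CPM for 0 h, 297 and 326 for 0.5 h, 127 and 150.0 for 12 h, 122 and 115 for 24 h, and its pooled difference was negative although 12 h and 24 h lay above 0 h (-0.63 ± 0.57, adjusted p = 0.494). GADD45B had 18.7 and 20.2 CPM for 0 h, 119.7 and 135 for 0.5 h, 114 and 106 for 12 h, 104 and 91.5 for 24 h. CCN2, a matricellular growth factor, had 70.8 and 67.9 CPM for 0 h, 164 and 187 for 0.5 h, 333 and 362 for 12 h, 314 and 234 for 24 h and missed the threshold at an adjusted p of 0.0769. Of the 54 genes called for 0.5 h against 0 h, 13 were called in the pooled comparison.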

How the data were processed

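CEL-Seq2 libraries of A549 cells treated with TGFβ were compared between 12-24 h (4 libraries) and 0-0.5 h (4 libraries). The authors deposited raw UMI counts per gene and well. Per the labels, reads were trimmed with Trim Galore 0.6.7, aligned to GRCh38 with HISAT2 2.2.1, assigned to genes with featureCounts 2.0.1 and collapsed with UMI-tools. No source used here gives the annotation release or whether counting used strand, so overlapping and antisense genes are uncertain. For each library, protein-coding counts of the kept wells were added up. Library totals set the precision, and UMIs count captured molecules only.

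Sums were filtered with filterByExpr, scaled with TMM and tested with edgeR 4.0.16 (limma 3.58.1, R 4.3.3) by the quasi-likelihood test, with pool and replicate number as terms and Benjamini-Hochberg adjustment over all genes tested. A fit with a mean per time point gave the 2 against 2 comparisons. Library measures were compared by two-sided exact permutation tests (scipy 1.17.1). The scripts were tested on simulated data. Members and gene lists were chosen with earlier results of these data known. Genes were named by rule. The first set was the 5 highest and 5 lowest log2 differences with at least 50 CPM in the higher pool and no overlap of the pools. The second was the 12 higher and 12 lower missed small differences with the lowest adjusted p, with at least 20 CPM and no overlap. The third was up to 3 small called members per list, and the fourth a panel given whatever its values. Alternatives were no block, other scalings and filters, DESeq2 1.42.0, all genes, stricter limits on cells (at least 3000 genes and at most 20% mitochondrial counts), thinned sums, other pools and fits, a test against a 1.2-fold change, and leaving out each library. The 48 h and 96 h libraries entered only the fits over 12 libraries. Some genes and a gene list that these rules would name are not reported here.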

Additional observations from a re-analysis of the deposited data

Results flagged for a closer look

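In 378 sets of 4 values of named genes and library measures, 23 had 1 library far from the other 3 by Dixon's ratio. Chance gives about 1 in 20. In the early pool, 0.5 h replicate 1 stood apart for DYNLT3 (33.6 CPM), CCNI (169 CPM), HSBP1L1 (32.1 CPM), FN1 (122 CPM) and TOP2A (277 CPM). The library 0 h replicate 1 stood apart for TNFAIP6 (0.814 CPM), KRT8 (964 CPM), RAB31 (26.9 CPM) and EEF1E1 (145 CPM), and 0 h replicate 2 for AJUBA (58.4 CPM), HNRNPF (380.7 CPM) and RHEB (251 CPM). In the late pool, 12 h replicate 2 stood apart for AREG (8.25 CPM), P4HA2 (36.7 CPM) and CCND1 (159 CPM). The library 24 h replicate 1 did so for NOB1 (81.0 CPM) and CAT (44.5 CPM), and 24 h replicate 2 for IL11 (279.7 CPM), HERPUD1 (107.5 CPM), HSPE1 (861 CPM), PGD (445 CPM), MXD4 (25.3 CPM) and BIRC2 (53.2 CPM).

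Among genes named by rule and reported here, times within a pool differed for 2 in edgeR's quasi-likelihood test. HIF1A differed by a log2 of -0.71 between 24 h and 12 h (adjusted p = 0.0356), and IL11 was higher at 0.5 h than at 0 h by 2.02 (adjusted p = 0.00355). The 7 TGFβ/SMAD targets that pooling lost, which were not named by rule, also differed between 0.5 h and 0 h.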

How the results depend on the processing

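The pooled comparison called 2561 genes. It called 2401 with no replicate block, 2583 with RLE scaling, 2645 with upper-quartile scaling and 2091 with DESeq2. The main 1390 rises and 1171 falls became 1355 and 1228 with RLE scaling and 1249 and 1396 with upper-quartile scaling. They were 1223 and 1323 with library totals, and 1479 and 1492 with no filter on low counts. Which direction held more genes thus depended on scaling and filter. The pooled count fell to 418 with stricter limits on cells, which left 7 to 26 cells per library in the 8 libraries and 3265 genes to test. It fell to 1542 when tested against a 1.2-fold change. The 611 small differences missed by 2 against 2 numbered 723 with no replicate block, 100 with stricter limits, 275 with 0 h alone as the early pool, 289 with 12 h alone and 204 with 24 h alone as the late pool, 75 against a 1.2-fold change, and 244 where 2 against 2 was fitted on those 4 libraries alone. With 1 library left out, the pooled count was 2056 to 2615 and the missed count 278 to 615. The missed count was 364 without 0 h replicate 1, 359 without 0 h replicate 2, 344 without 12 h replicate 2, 380 without 12 h replicate 1 and 278 without 24 h replicate 1. Leaving out libraries or times, and the stricter limits, use fewer libraries or cells, and the 1.2-fold test is stricter by construction. For the other alternatives the cause was not tested.

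The replicate number was a block in the main fits, and beyond that the numbers were not taken to pair the samples. Deviations from the time means of same-numbered libraries correlated at 0.279 (0 h and 12 h), 0.268 (0 h and 24 h) and 0.334 (12 h and 24 h), but at -0.09, -0.10 and -0.06 between 0.5 h and 0 h, 12 h and 24 h. Without the block, 2386 of the 2561 calls remained.

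Signs turned in genes that had not passed, except ITGA6 (0.13) and SLC7A5 (-0.11) under stricter limits on cells, where NFE2L2 was at 0.42 and KRT18 at 0.0396. With 0 h alone as the early pool KRT18 was at 0.11, KRT8 at 0.0363 and SMAD2 at -0.0375. With 12 h alone as the late pool HIF1A was at 0.29 and KRT8 at 0.0072, and with 24 h alone EPCAM was at -0.34, MKI67 at -0.0315, RPLP0 at 0.18 and SMAD2 at -0.12. RPLP0 was at 0.0111 with no replicate block. With 1 library left out, values ran from -0.0328 to 0.39 for EPCAM, -0.43 to 0.0105 for GAPDH, -0.18 to 0.12 for HIF1A, -0.15 to 0.19 for KRT18, -0.30 to 0.0214 for LMNA, -0.00061 to 0.17 for MKI67 and -0.15 to 0.13 for RPLP0. Of the values of named genes under alternatives, 3927 kept direction and side of the threshold, 356 lost the call and 6 gained one.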
